A study of Mus musculus with 2 samples.

Results

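The cells described here are cycling keratinocytes in G2 and M phase, taken from 2 single-cell RNA libraries of cultured mouse epidermis. They were chosen by a rule on their own RNA. A cell was included when Krt14, a keratin of basal keratinocytes, stood at 1000 CPM or more (unique molecular identifiers, UMIs, of a gene per 1000000 UMIs of the cell) and when 7 cell cycle genes, Ube2c, Cdk1, Top2a, Birc5, Ccnb2, Cdc20 and Cenpa, summed to 1500 CPM or more. This gave 143 cells of 3062 with Krt14 over its limit and of 3686 in all, 123 in the library labelled Bap1 wild type and 20 in the library labelled Bap1 knockout. Values of Krt14 and the 7 genes in these cells were set by the rule and are given as a description.

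In G2 phase a cell has copied its DNA, and cyclin B accumulates and activates the kinase encoded by Cdk1, which drives entry into mitosis. In mitosis the condensed chromosomes attach to the spindle through kinetochores, and the anaphase promoting complex with its activator, encoded by Cdc20, marks cyclin B and securin for destruction so that the chromatids part. In epidermis, basal keratinocytes bound to the basement membrane divide, and their daughters leave the cycle, move up and make the cornified envelope. The genes of this stage share a known promoter element, the cell cycle genes homology region, through which a repressor complex keeps them silent in resting cells, often beside CCAAT boxes bound by the factor NF-Y.

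Both libraries came from C57BL/6 mice at postnatal day 1. The library labelled wild type was a pool of 11 neonates with Rosa26-CreERT2, a recombinase activated by 4-hydroxytamoxifen (4-OHT) and driven from a locus active in most cell types. The library labelled knockout was a pool of 9 neonates with Bap1fl/fl Rosa26-CreERT2, in which the recombinase cuts Bap1, the gene of a deubiquitinase of histone H2A. Both carried CreERT2 and both received 100 nM 4-OHT for 4 days, then 3 more days without it, in medium M254 with human melanocyte growth supplement, and about 6000 viable cells of each entered a 10x Genomics Chromium run with the 3′ v2 kit. The comparison asks how cycling keratinocytes differed after Bap1 deletion. With 1 library per genotype there is no test and no p-value. Every interval is a 95% interval for counting error only, and each ratio compares 2 libraries and not 2 replicated conditions.

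The targeted gene, Bap1 (GRCm38.p6, chr14:31251352-31259930), had close RNA levels in cycling cells of both libraries. In the cycling keratinocytes it had 111 UMIs, or 15.8 CPM, in the wild-type-labelled library and 20 UMIs, or 15.99 CPM, in the knockout-labelled library, a log2 ratio of 0.02 (−0.75 to 0.71). In the other Krt14-high cells it was 13.7 and 19.3 CPM, higher in the knockout-labelled library. Reads from the 3′ side of a transcript need not cover the exons removed, which no source used here gives, so the level of Bap1 is no check of the deletion. The libraries are called by their labels throughout.

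Promoter sequences of 6 of the 7 rule genes are shown to compare their elements: 4 with both elements in the stretch, Ccnb2 with CCAAT boxes alone in it, and Birc5 with neither. The stretches run from 100 to 3 bases before the RefSeq transcription start on GRCm38.p6 and are written 5′ to 3′ on the strand of the gene. Capitals mark the core of the cell cycle genes homology region (TTTGAA or TTCGAA) and CCAAT boxes, each on either strand.

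Ube2c, chr2:164769829-164769926, plus strand: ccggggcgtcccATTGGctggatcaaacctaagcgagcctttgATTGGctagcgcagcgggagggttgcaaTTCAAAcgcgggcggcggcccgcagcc
Cdk1, chr10:69352915-69353012, minus strand: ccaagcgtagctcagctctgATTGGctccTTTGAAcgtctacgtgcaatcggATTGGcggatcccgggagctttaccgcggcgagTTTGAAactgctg
Top2a, chr11:99024192-99024289, minus strand: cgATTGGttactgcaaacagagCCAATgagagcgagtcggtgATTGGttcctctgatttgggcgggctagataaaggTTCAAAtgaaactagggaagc
Cdc20, chr4:118437346-118437443, minus strand: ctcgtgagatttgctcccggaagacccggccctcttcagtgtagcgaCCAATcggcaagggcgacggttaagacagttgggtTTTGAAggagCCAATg
Ccnb2, chr9:70421557-70421654, minus strand: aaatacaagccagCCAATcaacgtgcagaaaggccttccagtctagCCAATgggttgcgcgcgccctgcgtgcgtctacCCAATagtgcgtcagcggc
Birc5, chr11:117849137-117849234, plus strand: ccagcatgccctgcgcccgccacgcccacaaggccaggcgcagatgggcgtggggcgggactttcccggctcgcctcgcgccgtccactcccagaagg

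In Ube2c, Cdk1, Top2a and Cdc20 the homology core nearest to the start began at −29, −15, −23 and −18, and each of these stretches also held CCAAT boxes. Ccnb2 had 3 CCAAT boxes at −87, −54 and −21 and its nearest core at base 5 after the start. Birc5 had neither in the whole window. Cenpa, whose stretch is not shown, had its core at base 17 after the start. Over windows of 300 bases (250 before to 50 after the start), 6 of the 7 genes held a homology core, against 5854 of 27025 genes with a RefSeq promoter (21.7%). Of 105 genes with a promoter entry among the 125 of 6 lists of G2 and M phase genes, 62 (59.0%) held it, and 43 (41.0%) held 2 or more CCAAT boxes against 13.3% of all genes. These lists hold none of the 7 rule genes, and in the spindle list the core was found in 21 of 27 (77.8%). For the core, the S phase list, with 8 of 42 (19.0%), and the 8726 genes measured in the cycling cells and matched to a promoter, with 16.4%, lay near or under the share of all genes. For 2 or more CCAAT boxes the S phase list had 15 of 42 (35.7%) and the measured genes 17.3%. The 12 genes lowest in cycling against other Krt14-high cells, named below, had 4 of 11 (36.4%). A high CCAAT share was thus not particular to the G2 and M lists. A gene with several starts was counted when any of its windows matched. These are matches of letters and not measured sites.

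Cycling keratinocytes took a larger share of the wild-type-labelled library. They were 123 of 1702 Krt14-high cells there (7.23%, with an exact Clopper-Pearson interval of 6.04 to 8.56%), whereas the knockout-labelled library had 20 of 1360 (1.47%, 0.901 to 2.26%). The share was 4.91 times as high in the wild-type-labelled library (3.05 to 8.33). Of all deposited cells they were 6.39% and 1.14%, a ratio of 5.62 (3.49 to 9.52). Krt14-high cells themselves were 88.4% and 77.3% of the libraries. After each cell was thinned to 8000 UMIs before the rule was applied, the shares were 7.03% and 1.32%.

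**Figure D1:**
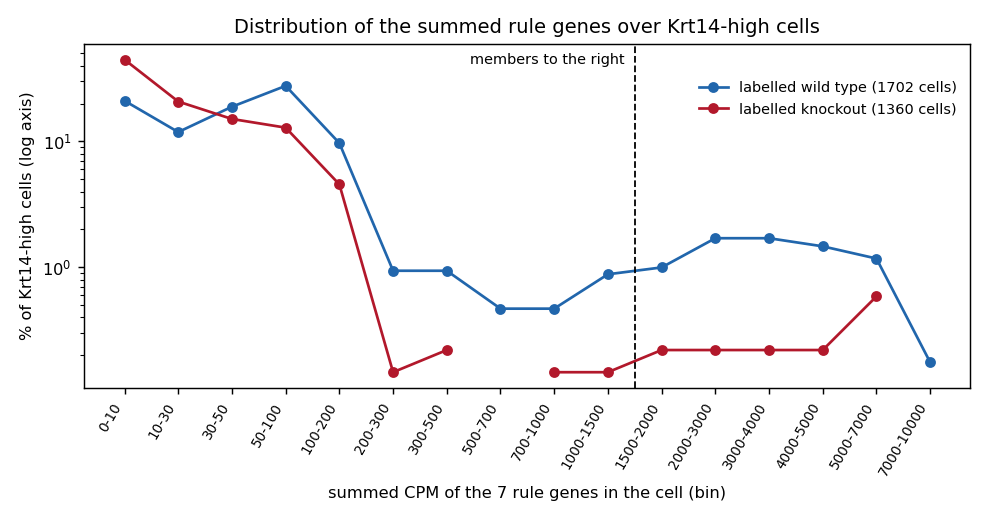
The share of Krt14-high cells (percent, log axis) in each bin of the summed CPM of the 7 genes is plotted for the wild-type-labelled library (blue) and the knockout-labelled library (red), and bins with no cell have no point. Most cells lay under 200 CPM, and right of the dashed limit of 1500 CPM the blue point stood above the red one in every bin that has both.

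The limit of 1500 CPM lay above most Krt14-high cells but not in a gap. From 1000 to 1500 CPM lay 15 cells of the wild-type-labelled library and 2 of the knockout-labelled library. From 1500 to 2000 CPM lay 17 and 3. Under 200 CPM lay 89.1% and 97.9% of the Krt14-high cells, and between 200 and 1500 CPM only 63 (3.70%) and 9 (0.662%). The lowest cells inside had 1511 and 1540 CPM, and the highest cells outside had 1444 and 1252 CPM. For Krt14 the lowest cycling cells inside its limit had 1023 and 1484 CPM and the highest cycling cells outside it 613 and 851 CPM. Ube2c, the ubiquitin-conjugating enzyme of the anaphase promoting complex, had at least 1 UMI in all 123 and all 20 cells, as did Cdk1 and Birc5, which encodes survivin of the chromosomal passenger complex.

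The cells bore the marks of keratinocytes. All 10 keratinocyte markers were present in both libraries, with a summed level per cell of 5855 to 44183 CPM (median 18065) and 5185 to 33858 CPM (median 21783). Most of the sum was Krt17, with 13716 of 19659 CPM and 14578 of 20579 CPM over the summed cells. Krt15 had only 19 and 1 UMIs. The pigment cell markers summed to 74.3 to 976 CPM per cell (median 266) and 36.9 to 424 CPM (median 234), against medians of 238 and 223 in the other Krt14-high cells, so cycling and other cells had like low levels. All 8 fibroblast markers were at 0 in the knockout-labelled library and 2 of 8 (Col3a1 and Lum) in the wild-type-labelled library. Sox2 of the Schwann cell markers was at 0 in both. The summed pigment, Schwann, myeloid and fibroblast markers reached 1000 CPM in 1 cell of the wild-type-labelled library and in 0 of the knockout-labelled library. Lymphocyte markers summed to 19.4 and 39.97 CPM against 5.39 and 6.81 in the other Krt14-high cells. In the knockout-labelled library Cd3e, Cd3g, Cd52 and Nkg7 were at 0 and every one of these UMIs was of Thy1. Thy1 made up 17.6 of the 19.4 CPM in the wild-type-labelled library, where 1 cell reached 892 CPM of the summed markers. Cd3e had 0 UMIs there, Cd3g 1, Nkg7 1 and Cd52 10. In the other Krt14-high cells Thy1 had 3.66 and 5.34 CPM. Endothelial markers summed to 4.55 and 4.00 CPM and Merkel cell markers to 7.83 and 7.99 CPM, with Atoh1 and Isl1 at 0 in both libraries. The part of other cell types or of free RNA in these levels was not tested.

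Cycling cells were the deeper ones. They had medians of 56730 UMIs (10797 to 119019) and 53309 UMIs (23128 to 124588), against 39046 and 37051 in the other Krt14-high cells, ratios of 1.45 and 1.44. Summed, they held 7025669 and 1250805 of the 77579465 and 64954113 UMIs of the libraries. No doublet caller was run. Of the cycling cells 29 and 7 had more than 2 times the median UMIs of the other Krt14-high cells of their library. Without all Krt14-high cells over that depth, an alternative chosen after seeing the data, the shares were 5.95% and 1.02%, a ratio of 5.83 (3.25 to 11.3). The libraries shared 3 cell barcodes, 0 of them among the cycling cells.

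The rule genes had close levels in the cycling cells of both libraries. Ube2c had 1339 and 1457 CPM in the wild-type-labelled library and the knockout-labelled library, with 83.9 to 3638 CPM per cell (median 1239) and 134 to 2465 CPM (median 1651). Cdk1 had 643 and 691 CPM, Birc5 522 and 528, and Cenpa, the centromeric histone H3 variant, 521 and 511. Top2a, the topoisomerase that untangles sister chromatids, had 261 and 213 CPM, Ccnb2, a cyclin B, 284 and 329, and Cdc20 299 and 349. The ranges over cells overlapped for each of the 7. In the other Krt14-high cells the 7 genes summed to 77.5 and 31.2 CPM, and whether free RNA from cycling cells is part of that was not tested.

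Genes that the rule did not name went with the chosen cells in both libraries. Since the cells were chosen on genes of the same stage, these ratios describe the choice and support nothing further. Of 12468 genes with at least 100 UMIs in the wild-type-labelled library, 688 (5.52%) were at least 2-fold higher in cycling than in other Krt14-high cells, and 781 (6.26%) were lower by as much. In the knockout-labelled library these were 529 (4.57%) and 1255 (10.8%) of 11581. The minimum is on cycling and other cells together, and the cycling cells hold 7025669 and 1250805 UMIs against 65329270 and 53419283. A gene could thus pass it through the other cells alone and be called lower from few or no UMIs in cycling cells. The counts of lower genes cannot be compared between the libraries. In both libraries 344 were higher and 357 lower.

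The 12 genes with the highest ratios in both libraries were all of mitosis or its entry. Ccnb1, the main cyclin B of mitotic entry, had 132 and 145 CPM in cycling cells against 0.765 and 0.374 in the others, log2 ratios of 7.43 and 8.59. Cenpf, a kinetochore protein, had 159 and 134 CPM against 2.097 and 1.76, and Cenpe, a kinetochore motor, 118 and 109 against 1.99 and 0.543. Plk1, the polo-like kinase, and Aurka, the Aurora A kinase, had 157 and 231 CPM and 223 and 229 CPM, against 2.86 and 1.27 and against 4.26 and 2.12. The others were Hmmr, a spindle-binding protein, Cdkn3, a phosphatase of CDKs, Cdca3, Pbk, Ccna2 (cyclin A2), Pimreg and Sgo1, which protects centromeric cohesion. Their cycling levels lay between 68.0 and 202 CPM.

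**Figure D2:**
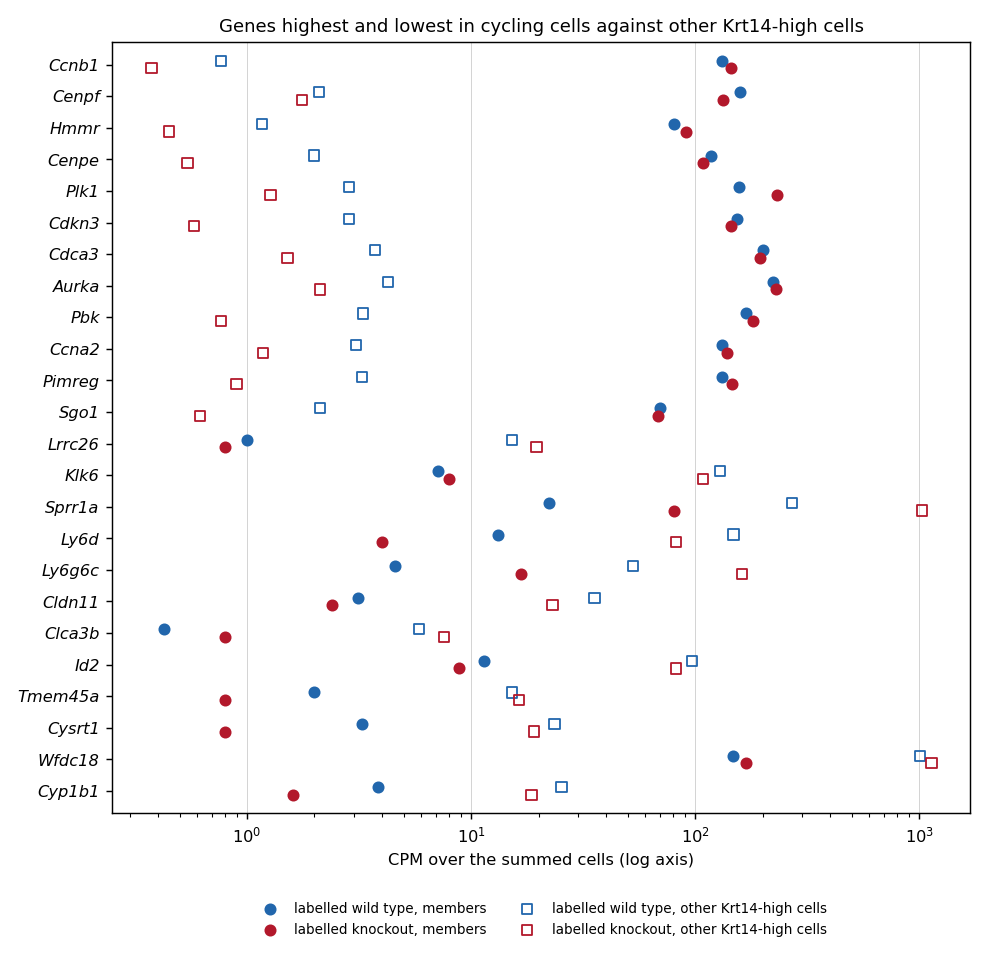
Summed CPM (log axis) is shown for the 12 highest and 12 lowest genes by the ratio of cycling cells (filled circles, called members in the key) to other Krt14-high cells (open squares), in the wild-type-labelled library (blue) and the knockout-labelled library (red). The upper 12 genes, from Ccnb1 to Sgo1, have circles far right of their squares in both libraries, and the lower 12, from Lrrc26 to Cyp1b1, have them to the left.

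By role, 100 of 120 measured genes of the 6 G2 and M lists were at least 2-fold higher in cycling cells of the wild-type-labelled library and 69 of 93 in the knockout-labelled library, and 0 were lower. Of the spindle motors, spindle proteins and cytokinesis genes 28 of 28 and 18 of 20 were higher, among them Kif2c, a motor that dismantles microtubules (31.6 and 54.4 CPM against 0.518 and 0.150). Of the kinetochore genes 24 of 25 and 16 of 17 were higher. The anaphase promoting complex stood apart, with 2 of 17 higher in each library. Its core subunit genes are needed outside mitosis too, and Anapc5 had 233 and 237 CPM in cycling cells against 131 and 138 in the others.

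S phase RNA was high in the same cells. Of the genes of DNA replication, 47 of 53 and 30 of 46 were at least 2-fold higher in cycling cells, such as Rrm2, a subunit of ribonucleotide reductase (276 and 186 CPM against 21.6 and 10.4). The summed S phase list per cell had a median of 3142 CPM (1169 to 11374) in the wild-type-labelled library and 2356 CPM (697 to 8302) in the knockout-labelled library. The 4 lists of cyclins and kinases, checkpoint, kinetochore and spindle genes together had medians of 8385 CPM (3065 to 15994) and 8811 CPM (2726 to 16104). S phase RNA was 26.6% and 21.6% of the sum of both by median, and it exceeded mitotic RNA in 4 of 123 and 1 of 20 cells. In the other Krt14-high cells the S phase median was 619 and 680 CPM, and its median share of the sum of both was 27.3% and 27.5%. In the wild-type-labelled library the share was thus close in cycling and other cells.

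**Figure D3:**
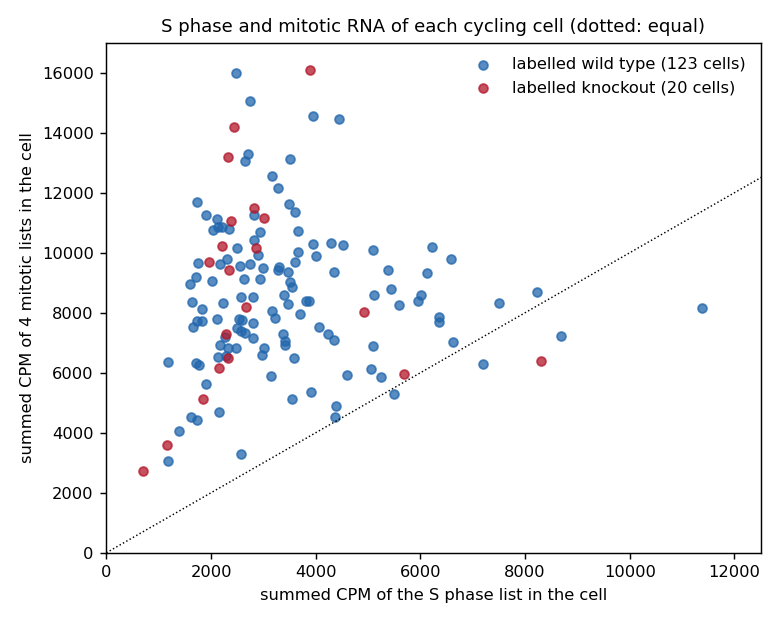
Each point is a cycling cell of the wild-type-labelled library (blue, 123 cells) or the knockout-labelled library (red, 20 cells), with the summed CPM of the S phase list on the x axis and of 4 mitotic lists on the y axis. Nearly all cells lie above the dotted line of equal sums, and the red points fall inside the range of the blue ones except at the lowest S phase and mitotic sums and at the highest mitotic sum.

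Some Krt14-high cells with much S phase RNA fell outside the rule, and their G2 and M RNA was not measured apart. At a level of 2000 CPM of the S phase list, chosen after its values were seen, 105 of 123 and 16 of 20 cycling cells lay over it. So did 53 of the other Krt14-high cells in the wild-type-labelled library, 3.11% of all Krt14-high cells (2.34 to 4.05%), and 28 in the knockout-labelled library, 2.06% (1.37 to 2.96%). Their ratio was 1.51 (0.940 to 2.48), an interval that includes 1, and 59 and 100 of the other cells lay within 1.5-fold of the level. Whether this ratio differs from the 4.91 of the G2 and M cells was not tested.

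Summed over cells, differentiation genes were lower in cycling than in other Krt14-high cells, while medians per cell were close. The list summed to 311 and 176 CPM against 1252 and 1495 over all cells of a kind. Per cell its median was 242 and 160 CPM in cycling cells against 211 and 169 in the others, whose highest cells reached 85175 and 57437 CPM while no cycling cell was over 1698 CPM. The summed ratios that follow thus rest on high cells among the others. Of the suprabasal and cornified envelope genes 10 of 13 and 11 of 13 were at least 2-fold lower than in the other Krt14-high cells, and 0 were higher. Sprr1a, a cornified envelope precursor, had 22.2 and 80.7 CPM against 271 and 1028, and Sprr2d 21.4 and 3.20 against 331 and 50.6. Of 17 basal and adhesion genes 2 were at least 2-fold higher in each library, and 0 and 1 lower. Krt5, the partner keratin of Krt14, had 1295 and 927 CPM against 1058 and 656, and Trp63, the gene of the basal transcription factor p63, 47.7 and 35.2 against 24.3 and 13.7. Col17a1, a collagen of the hemidesmosome, had 59.9 and 31.98 CPM against 29.9 and 10.05.

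Other genes among the 12 with the lowest ratios were Klk6, a secreted kallikrein protease (7.12 and 7.99 CPM against 129 and 109), Ly6d (13.2 and 4.00 against 148 and 82.4) and Id2, an inhibitor of helix-loop-helix factors (11.4 and 8.79 against 96.6 and 82.3). Wfdc18, a small secreted protein, had 147 and 169 CPM against 1009 and 1134. The rest, Lrrc26, Ly6g6c, Cldn11, Clca3b, Tmem45a, Cysrt1 and Cyp1b1, had at most 16.8 CPM in cycling cells. Lrrc26 overlaps Grin1, and among the genes above Aurka overlaps Cstf1, Ccna2 Exosc9, Pimreg Aipl1 and Cdc20 Elovl1, so some of their UMIs could belong to the neighbour.

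Inhibitors of CDKs were split. Cdkn1a, which encodes p21, had 892 and 1179 CPM in cycling cells against 2128 and 2500 in the others, with 138 to 4500 CPM per cell (median 803) and 159 to 2880 CPM (median 1177). Cdkn2a and Cdkn2b, the genes of p16 with ARF and of p15, were also lower, with 48.7 and 68.0 CPM against 168 and 190, and 113 and 131 against 323 and 310. Cdkn2d, the gene of p19, was higher, with 47.97 and 33.6 CPM against 11.5 and 7.11. Cdkn2c, the gene of p18, had 13.8 and 5.60 CPM against 1.35 and 0.655, from 97 and 7 UMIs in cycling cells. In all, 4 of 7 and 4 of 6 measured were at least 2-fold lower.

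The rule set the same limit on summed G2 and M RNA in both libraries, so close levels of such genes in the chosen cells follow in part from the choice and are a description. Of 125 genes measured in the 6 lists, 3 were at least 1.5-fold higher in the knockout-labelled library and 14 lower, with a median log2 ratio of −0.05. In the other Krt14-high cells, which had no lower limit of this kind, the median of the 125 was −0.41. Their summed level in those cells was close, with 3524 and 3580 CPM (log2 0.02), so the median does not speak for the total. Over all 11353 genes with at least 20 UMIs in the cycling cells, 7.12% were 1.5-fold higher and 20.9% lower, with a median of −0.08. This minimum is on the sum of both libraries, of which the wild-type-labelled one holds more UMIs. It lets in genes low in the knockout-labelled library more easily than genes low in the other. The list medians were −0.11 for cyclins, kinases and phosphatases (0 higher and 2 lower of 20), −0.06 for the passenger complex and checkpoint (0 and 2 of 12) and −0.19 for the kinetochore (0 and 4 of 25). They were 0.00 for the spindle (1 and 3 of 31), 0.10 for condensin and chromatin (2 and 1 of 19) and 0.05 for the anaphase promoting complex (0 and 2 of 18).

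A few of these genes lay apart. Cdc25b, a phosphatase that activates CDK1, had 20.2 and 6.40 CPM from 142 and 8 UMIs, 3.16-fold lower in the knockout-labelled library (log2 −1.66, −2.90 to −0.64), and was seen in 72 of 123 and 6 of 20 cells. Wee1, the kinase that holds CDK1 inactive, had 126 and 64.0 CPM (log2 −0.97, −1.32 to −0.64). Kif2c was higher, with 31.6 and 54.4 CPM (log2 0.78, 0.37 to 1.18), as was Hmgb2, a chromatin protein, with 60.1 and 102 CPM (log2 0.77, 0.47 to 1.06). Plk1 differed by less than 1.5-fold (log2 0.55, 0.36 to 0.74). Ccnb1 (0.13, −0.10 to 0.36), Ccna2 (0.07, −0.17 to 0.31), Aurka (0.04, −0.15 to 0.22), Mki67 (−0.05, −0.49 to 0.37) and Cdc25c (−0.10, −0.66 to 0.42) had intervals that include 0. Foxm1, which encodes a transcription factor of this stage, had 13.5 and 13.6 CPM from 95 and 17 UMIs, and Mybl2 5.84 and 4.00 from 41 and 5. Without the deepest cells Foxm1 had a log2 ratio of −0.65, and without the top cell of each library Mybl2 had −1.14.

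Of the S phase and recombination lists, more genes lay lower than higher in the cycling cells of the knockout-labelled library, as over all genes. Of 54 S phase genes 18 were past 1.5-fold on the lower side and 0 on the higher side. Their median was −0.37, against −0.10 in the other Krt14-high cells, and their summed levels were 3210 and 2689 CPM. Rrm2 had 276 and 186 CPM (log2 −0.56, −0.77 to −0.37). Dut, which keeps uracil out of DNA, had 353 and 345 CPM (−0.03, −0.18 to 0.12), and Pcna, the replication clamp, 29.3 and 27.2 (−0.11, −0.68 to 0.42). Of 13 homologous recombination genes, 8 lay lower and 0 higher; the median was −0.80, against −0.67 in the other Krt14-high cells. UMIs were few, and Hrob had 83 and 4 (11.8 and 3.20 CPM), a log2 ratio of −1.89 that was −2.78 without the deepest cells. With each cycling cell thinned to 8000 UMIs the median of this list was −0.11. Of 18 cell cycle transcription factors 5 were lower and 0 higher (median −0.49), and of 9 G1 cyclins and kinases 2 and 0 (median −0.36), the latter a share near the 20.9% of all genes. Ccnd1, cyclin D1, had 548 and 427 CPM.

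**Figure D4:**
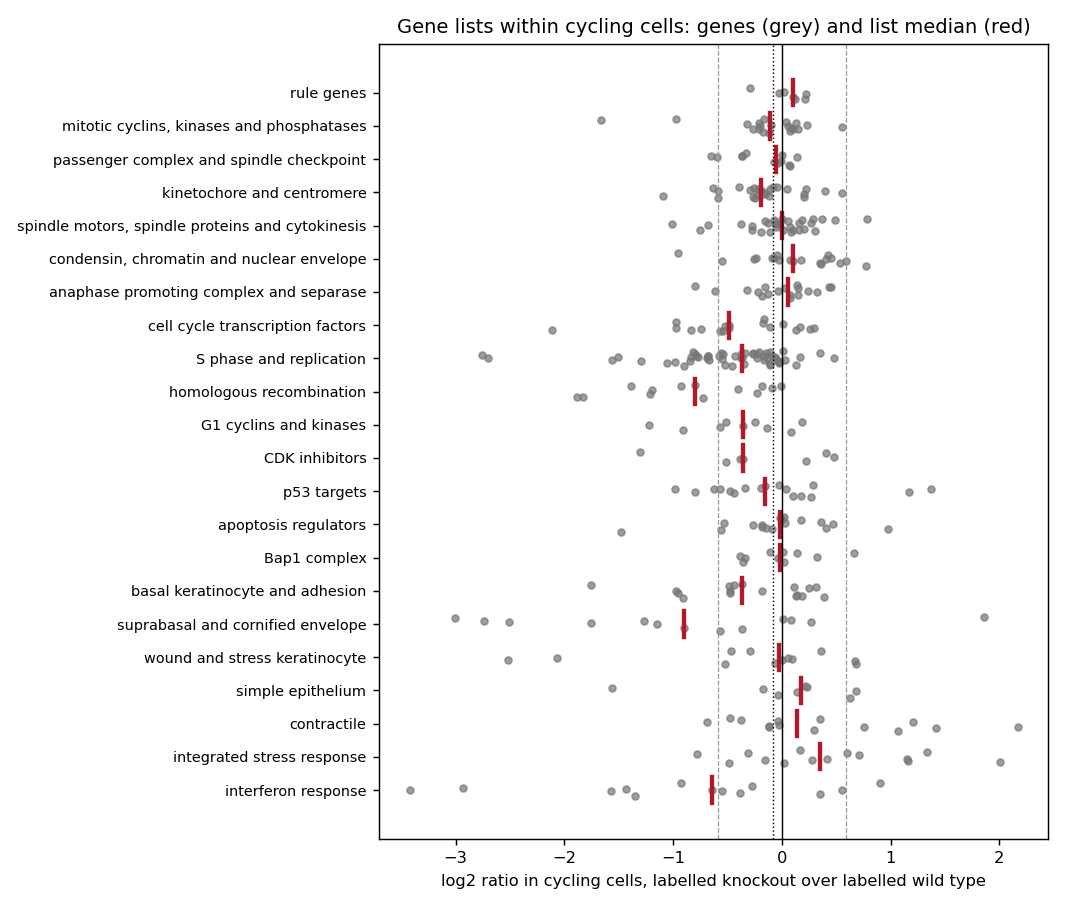
Each grey point is a gene with at least 20 UMIs in the cycling cells, placed by its log2 ratio of the knockout-labelled library over the wild-type-labelled library, and red bars are list medians (dashed lines, 1.5-fold; dotted line, median of all genes, −0.08). The medians of the 6 G2 and M lists lie between −0.19 and 0.10, those of homologous recombination, suprabasal and interferon genes at −0.80, −0.90 and −0.64, and that of integrated stress response genes at 0.35.

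Among lists of other functions, those of stress and contraction held more higher than lower genes, and their medians were as large or larger in the other Krt14-high cells. Of 14 integrated stress response genes 6 were at least 1.5-fold higher and 1 lower (median 0.35, and 0.35 in the others), among them Trib3, a pseudokinase induced by ATF4, with 15.1 and 60.8 CPM, and Nupr1, a stress-induced nuclear protein, with 306 and 770 CPM. Nupr1 was seen in 118 of 123 and in 20 of 20 cells, with medians of 191 and 547 CPM. Of 14 contractile genes 5 were higher and 1 lower (median 0.13, and 0.37 in the others). Acta2, the smooth muscle actin, had 1814 and 4191 CPM, with 0 to 12088 CPM per cell (median 662) and 216 to 13620 CPM (median 2315). Myl9, a myosin light chain, had 353 and 940 CPM, and Tpm1, a tropomyosin, 5395 and 5273. The 5 muscle markers summed to 92.1 and 154 CPM in cycling cells and to 51.4 and 114 CPM in the others, and in cycling cells nearly all of this was Tnnt2, a troponin, with 89.1 and 150.3 CPM. Myod1, a factor of skeletal muscle cells only, was at 0 in cycling cells of both libraries. Myog had 1 and 0 UMIs there, Des 2 and 2, and Actc1 18 and 2. The part of other cells, smooth muscle cells included, in the contractile values was not tested. The p53 targets did not lean to the higher side, with 2 higher and 3 lower of 17 measured (median −0.15, and 0.10 in the others). These shares lay near the 7.12% and 20.9% of all genes. The 2 higher were Gdf15 (14.8 and 38.4 CPM) and Bbc3 (20.6 and 46.4 CPM). Cdkn1a had a log2 ratio of 0.40 (0.32 to 0.48).

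Suprabasal and interferon lists held more lower than higher genes. Of 13 suprabasal genes 7 were at least 1.5-fold lower and 1 higher (median −0.90, and −0.12 in the others). Dmkn, a secreted suprabasal protein, had 159 and 28.0 CPM, while Sprr1a went the other way. The interferon response list had 13 genes measured, 7 of them lower and 1 higher (median −0.64, and −0.68 in the others). Ifitm3, a membrane protein that blocks viral entry, had 1237 and 459 CPM, with a log2 ratio of −1.43 (−1.55 to −1.31). Isg15, a ubiquitin-like modifier, had 181 and 0 UMIs, at least 10.7-fold lower when the 0 is set to the floor of 3 UMIs for the summed cells, and entered the median at that bound. 1 cell held 40.3% of the 181. Of 17 basal genes 4 were lower, a share near that of all genes, and 0 higher (median −0.36). Sfn, the 14-3-3 sigma protein, had 2804 and 3669 CPM. Apoptosis regulators (1 higher and 1 lower of 17, median −0.02), the Bap1 complex (1 and 0 of 10, −0.02), wound and stress keratinocyte genes (2 and 2 of 12, −0.03), simple epithelium genes (2 and 1 of 8, 0.18) and CDK inhibitors (0 and 1 of 7, −0.36, but 0.27 after thinning) made up the rest.

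Genes were then ranked by their ratio between the libraries. In 7505 genes with at least 100 UMIs over the cycling cells, a limit of 2-fold was passed by 79 (1.05%) on the higher and by 372 (4.96%) on the lower side in the knockout-labelled library. The minimum is on the sum of both libraries, with 7025669 UMIs in the wild-type-labelled and 1250805 in the knockout-labelled library. A gene low in the knockout-labelled library thus passes it more easily than a gene low in the other. The higher and the lower count cannot be set against each other. The lowest ratio was that of Ppbp (chr5:90768518-90770063), which encodes pro-platelet basic protein, a chemokine, with 7199 and 27 UMIs, or 1025 and 21.6 CPM (log2 −5.57, −6.17 to −5.03), found in 101 of 123 and 8 of 20 cells. Per cell it ran from 0 to 13703 CPM (median 76.0) and from 0 to 157 CPM (median 0), so the ranges overlapped at their low end. 1 cell held 17.2% of its UMIs in the wild-type-labelled library and 1 cell 51.9% in the other. Cxcl5 (chr5:90759298-90761625), a chemokine for neutrophils on the same chromosome, had 7042 and 116 UMIs, or 1002 and 92.7 CPM (log2 −3.43, −3.71 to −3.17), and 72.4% of the 116 lay in 1 cell. Without the top cell of each library its log2 ratio was −5.07. In the other Krt14-high cells Ppbp had 264 and 148 CPM and Cxcl5 440 and 146.

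Tnfsf15, which encodes the cytokine TL1A, had 203 and 0 UMIs, at least 12.05-fold lower with the same floor. The other genes with the lowest ratios had 1 to 11 UMIs there. They were Sting1, the sensor adaptor of cytosolic DNA (105 and 1 UMIs, log2 −4.22, −9.54 to −1.71), the lactate exporter gene Slc16a3 (175 and 2, −3.96, −7.02 to −2.09), Chn2 (173 and 2), Pdzk1ip1 (148 and 2) and Smagp (211 and 3). Gstk1, a glutathione transferase, had 257 and 4 UMIs, Dnajc12 107 and 2, Metrn 212 and 4, and the miRNA gene Mir147, whose UMIs cannot be told apart from its host AA467197, 759 and 11. Slc16a3 overlaps Csnk1d and Chn2 overlaps gene models named by a number. With so few UMIs these ratios moved with the cells used. Without cells over 2 times the median UMIs, the log2 ratio was −2.01 for Slc16a3, −2.21 for Chn2, −1.71 for Pdzk1ip1, −1.50 for Dnajc12, −3.04 for Sting1, −2.93 for Smagp and −2.59 for Metrn. The bound for Tnfsf15 was then −2.44 on the log2 scale, and Ppbp stood at −6.44. Without the top cell of each library Slc16a3 had −4.70, Pdzk1ip1 −4.46, Dnajc12 −4.04 and Ppbp −6.26. Sting1 and Chn2 then had 0 UMIs in the knockout-labelled library. Their values of −2.49 and −3.18 are thus bounds at the floor of 3 UMIs and not smaller differences. Any other gene left with 0 UMIs by such a setting also stood at that floor.

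Among the 12 genes with the highest ratios, Trib3 had 106 and 76 UMIs, 4.03-fold higher (log2 2.01, 1.57 to 2.45), in 57 of 123 and 19 of 20 cells. Their order depended on the setting: after thinning Trib3 had 1.18 and Ccn4 2.19, and at equal weight per cell Trib3 had 1.65 and Rbpms2 1.96. Rbpms2 had 2.23 without the deepest cells. Fn1, fibronectin, had 294 and 890 CPM, 3.02-fold higher, with 0 to 1866 CPM per cell (median 185) and 0 to 3675 CPM (median 791). Myl9 was 2.67-fold higher (log2 1.42, 1.31 to 1.52), Sprr1a 3.64-fold (22.2 and 80.7 CPM) and Angptl4, a secreted inhibitor of lipoprotein lipase, 3.13-fold (36.0 and 113 CPM). Ddah2, which breaks down methylated arginine, had 99.6 and 275 CPM, and Ccn4, a matricellular protein, 36.0 and 98.3. Prr7, Rbpms2, Ctla2a, Cst6 (a cystatin protease inhibitor) and Dtx4 were 2.64-fold to 3.93-fold higher. Cells of the libraries overlapped in their range for each of these 12 genes.

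**Figure D5:**
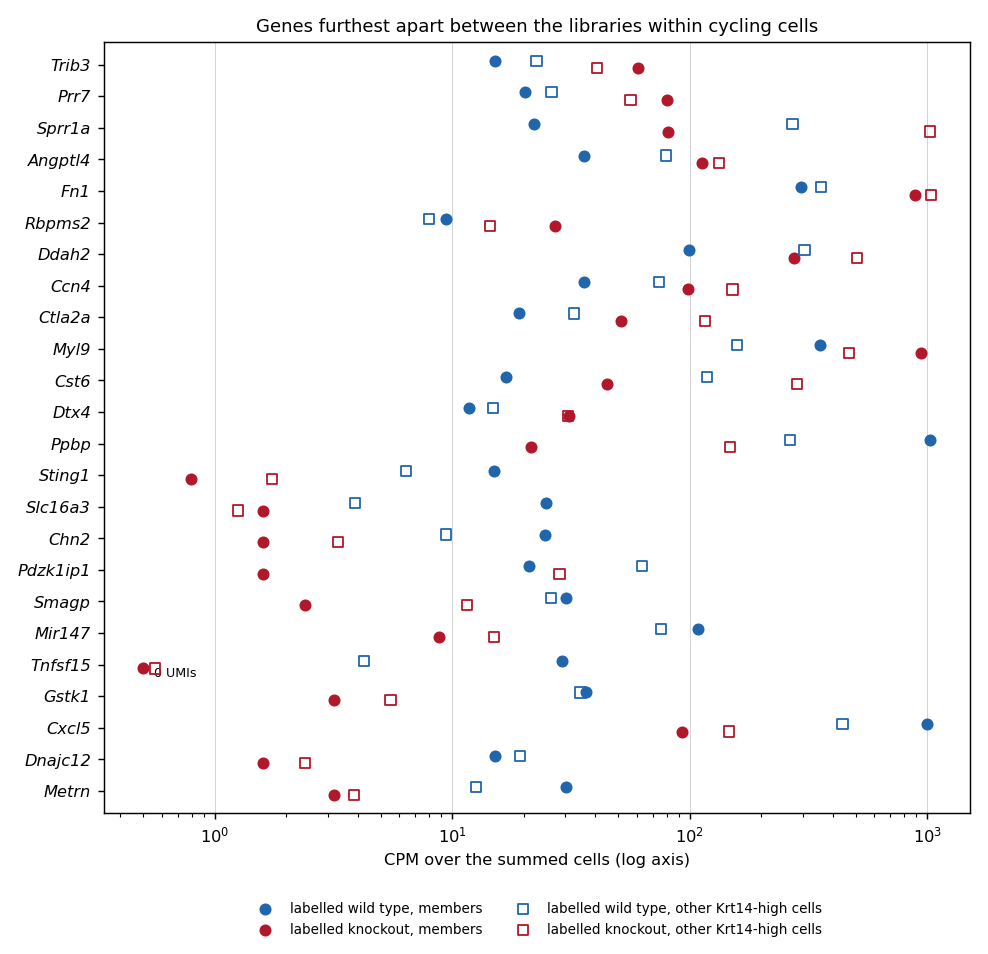
Summed CPM (log axis) is shown for the 12 highest and 12 lowest genes by the ratio between the libraries within cycling cells (filled circles, called members in the key), beside other Krt14-high cells (open squares), in the wild-type-labelled library (blue) and the knockout-labelled library (red). Red circles lie right of blue ones from Trib3 to Dtx4 and left of them from Ppbp to Metrn, and Tnfsf15 with 0 UMIs is drawn at the left edge.

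Most of these differences had the same direction in the other Krt14-high cells, some of which hold S phase or lower G2 and M RNA. All 12 higher and all 12 lower genes had the same direction there, 8 and 11 of them by at least 2-fold. Fn1 had 356 and 1038 CPM in them, Myl9 158 and 469, and Gstk1 34.7 and 5.50. Of all 79 higher genes 76 had the same direction in the other cells and 19 by at least 2-fold, and of the 372 lower genes 351 and 142. Most genes of either set thus did not reach 2-fold there. The same shares over all measured genes were not counted, so these counts have no baseline. The median log2 ratio of the 372 was −1.37 in cycling cells and −0.82 in the others, and the choice of genes by their ratio in cycling cells sets the first of these. The other cells come from the same libraries and are no replicate.

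The Bap1 complex showed no member beyond 1.5-fold except Ogt, the O-GlcNAc transferase, with 17.7 and 28.0 CPM from 124 and 35 UMIs (log2 0.66, 0.08 to 1.22). Hcfc1, its main partner, had 31.2 and 34.4 CPM, and the cofactor genes Asxl1 and Asxl2 had 17.5 and 17.6 CPM and 17.2 and 13.6 CPM. These genes rest on 17 to 43 UMIs in the knockout-labelled library, and for Hcfc1, Asxl1 and Asxl2 no difference was detectable at this depth.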

How the data were processed

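The authors deposited a table of counts for each of the 2 libraries, genes by cells, whose whole numbers were read as UMI counts. The submitters' processing notes name mm10, Cell Ranger 2.1 and Seurat 2.0, with no role. The sources used here do not give how cells were called, whether doublets were removed or whether introns were counted. RefSeq (GRCm38.p6) gave a symbol for 31049 of the 36528 gene identifiers. Those without one, 5479 with 2.67% of the counts, were kept in the totals. All deposited cells were used. UMIs were summed over the cells of a group and scaled to CPM. Shares have exact Clopper-Pearson intervals and ratios conditional exact intervals at 95%, for counting error only, since UMIs of a cell are not independent. Where a group had 0 UMIs, 3 took their place as the floor.

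The cells and gene lists were chosen with earlier results of these data known. Named genes are the 12 highest and 12 lowest ratios, in each comparison, above 100 UMIs and beyond 2-fold. Left out were numbered gene models, haemoglobins, sex chromosome genes, rule genes and genes with over 20% of the UMIs of the higher group in 1 cell. Added were 25 genes fixed by name and, for each list, the genes with the most UMIs and the largest ratios. Some genes that this rule names are not reported here. Promoters came from RefSeq, credited to GRCm38.p6. The code was tested on simulated counts. Alternatives were other limits, thinning, cell filters, equal weight per cell, centring, UMI minimums and leaving out top cells. Python 3.11.15, numpy 2.4.6, scipy 1.17.1, pandas 2.3.3 and matplotlib 3.10.9 were used.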

Additional observations from a re-analysis of the deposited data

Results flagged for a closer look

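Of 11481 genes measured in both libraries, 13 were at least 2-fold higher in cycling than in other Krt14-high cells of 1 library and at least 2-fold lower in the other. For 5 of them both counting intervals lay clear of 0. With 1 library per genotype the difference was not tested, and the cycling cells of the knockout-labelled library are 20.

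Ppbp had log2 ratios of cycling over other cells of 1.96 in the wild-type-labelled library and −2.78 in the knockout-labelled library. Tslp, a cytokine made by epithelia, had 2.81 and −4.49, from 1167 UMIs in 65 of 123 cycling cells and 1 UMI in 1 of 20, and 29.4% of the 1167 lay in 1 cell. Ubd, a ubiquitin-like protein, had 2.59 and −1.30, from 442 and 5 UMIs, with 30.3% of the 442 in 1 cell. Cstdc5 (−1.20 and 3.83) and S100g (−2.94 and 1.67) went the other way from 27 and 7 UMIs in the knockout-labelled library, of which 1 cell held 96.3% and 57.1%.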

How the results depend on the processing

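The ratio of the shares kept its direction under every alternative and ranged from 4.34 (Krt14 limit of 2000 CPM) to 5.83 (without cells over 2 times the median UMIs, added after seeing the data). That added setting moved the share in the wild-type-labelled library to 5.95%, outside its main interval. Counts of genes 2-fold higher and lower within cycling cells, 79 and 372, were 138 and 713 of 9419 measured at a minimum of 50 UMIs, and 44 and 171 of 5370 at 200. They were 24 and 74 of the 2117 genes that kept 100 UMIs after thinning to 8000, of which 13 and 31 were among the main calls. Without the top cell of each gene in each library they were 48 and 585, where the knockout-labelled library loses 1 of 20 cells and the other 1 of 123. Equal weight per cell gave 89 and 389 and centring 109 and 320. Without the deepest cells 93 and 292 were called, 48 and 166 of them in common. Of 317 values of 48 named genes under the alternatives 26 moved by over 1.5-fold, and 0 changed sign among genes beyond 2-fold. Among the 26 were the bounds at the floor for Sting1 and Chn2 without the top cell. Genes near a ratio of 1 did change sign, such as Mki67 (−0.05, and 0.58 after thinning), Foxm1 (0.01, and −0.65 without the deepest cells), Pcna (−0.11, and 0.47 after thinning), Cenpa and Aurka. After thinning, 19 genes had too few UMIs for a value. Cxcl5 ranged from −2.68 without the deepest cells to −5.18 at a limit of 2000 CPM. Of 176 list medians 2 moved by over 1.5-fold, both after thinning (homologous recombination −0.11, CDK inhibitors 0.27).

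No paired analysis was possible because each genotype has 1 library. Depth in the knockout-labelled library, 1250805 UMIs over 20 cycling cells, limits every ratio.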

Other observations

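Cycling cells were also fewer among cells with little Krt14. Of cells under the Krt14 limit, 22 of 224 (9.82%, 6.26 to 14.5%) in the wild-type-labelled library and 8 of 400 (2%, 0.867 to 3.90%) in the knockout-labelled library reached 1500 CPM of the 7 genes. The ratio was 4.91 (2.11 to 12.8), beside 4.91 among Krt14-high cells. The cell types among the 224 and the 400 cells were not compared, so the 2 ratios do not rest on like cells. Melanocyte markers reached 1000 CPM in 15 of the 22 and 6 of the 8, and Schwann cell markers in 15 and 5. Their median depth in the wild-type-labelled library was 13742 UMIs.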
